A study of Mus musculus with 27 samples.

Results

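The 10 genes described here belong to the Notch pathway: 3 receptors (Notch1, Notch2 and Notch3), 3 ligands (Jag1, Jag2 and Dll4) and 4 target genes (Hes1, Hey1, Hey2 and Heyl). They were chosen by name, with no use of their values in the rule, out of 23279 genes in the deposited expression table. All 10 were among the 14438 genes that passed a filter on low values (3 libraries or more with at least 1 CPM, a count per 1000000 counts), and each was above 3 reads in every library.

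Notch signalling passes between cells that touch. A ligand on one cell binds a receptor on its neighbour, the receptor is cut, and its inner part enters the nucleus, where it joins the DNA-binding protein RBPJ and switches on genes such as Hes1 and the Hey genes, which encode repressors of transcription. In the embryo the pathway is known for the sprouting of vessels and the choice of arterial fate, in which Dll4 and the Hey genes take part, for the heart, for the clock that divides the mesoderm of the tail into somites, and, in the limb bud, for the apical ectodermal ridge, where Jag2 is expressed.

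RNA was measured in 9 groups. ES–FLB and ES–HLB libraries came from limb bud organoids grown from the mouse ES line EB5 Hand2::GFP +/-, which carries a fluorescent reporter at 1 allele of Hand2, a gene of limb bud mesenchyme. Aggregates of both kinds received BMP4 and matrigel, then retinoic acid for forelimb or an antagonist of it for hindlimb, then the BMP inhibitor LDN193189 and Wnt3. The paper also gives hydrocortisone and methylcellulose in the later medium of both kinds. On day 9 many aggregates were pooled and their GFP-positive mesenchyme was sorted. The embryonic groups were dissected from Slc:ICR mice with no sorting named: early FLBs and early HLBs (labelled E10.0), and and from E10.5 embryos the tail bud (TB), heart (Ca), branchial arch (BA), FLBs and HLBs. For the early limb buds the figure legend gives an earlier stage for FLBs and a later one for HLBs, so limb type and stage cannot be told apart between them. The ES–LB groups differ from the dissected ones in culture, strain and sorting together, so these cannot be told apart either. Nothing in the labels says whether libraries of a group came from separate cultures or litters, so p-values measure the spread between these libraries, which may be technical.

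There were 3 libraries in each group except the E10.5 HLBs, where replicate 2 was left out because it has no values on several chromosomes, which leaves n = 2. In the 26 libraries used, the spacing of low values gave 5543755 to 22142321 reads on genes. The early limb bud libraries were deepest (19642254 reads or more), and between 93.1% and 93.6% of their values were whole reads within 0.05 of a read, against 98.9% or more elsewhere. Markers of limb mesenchyme (8 genes) summed to between 1466 and 2021 CPM in the limb buds, ES–LBs and BA, so this sum does not separate limb from BA. Those of heart muscle (7 genes) summed to 19050 CPM or more in Ca and to at most 96.2 CPM elsewhere, and those of presomitic and somitic mesoderm (7 genes) to 480 CPM or more in TB and to at most 42.5 CPM elsewhere. The 6 genes of branchial arch mesenchyme summed to between 473 and 485 CPM in BA and to at most 98.9 CPM elsewhere, so each embryonic tissue carried the markers of its label. Values below are CPM scaled between libraries, folds are ratios of group means, and differences are on log2(CPM + 0.5), a scale that understates the change of low genes. Groups were tested with limma in 1 model of all 9 groups, with adjustment over all 14438 genes and a threshold of 0.05, and values after ± are SD.

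**Figure D1:**
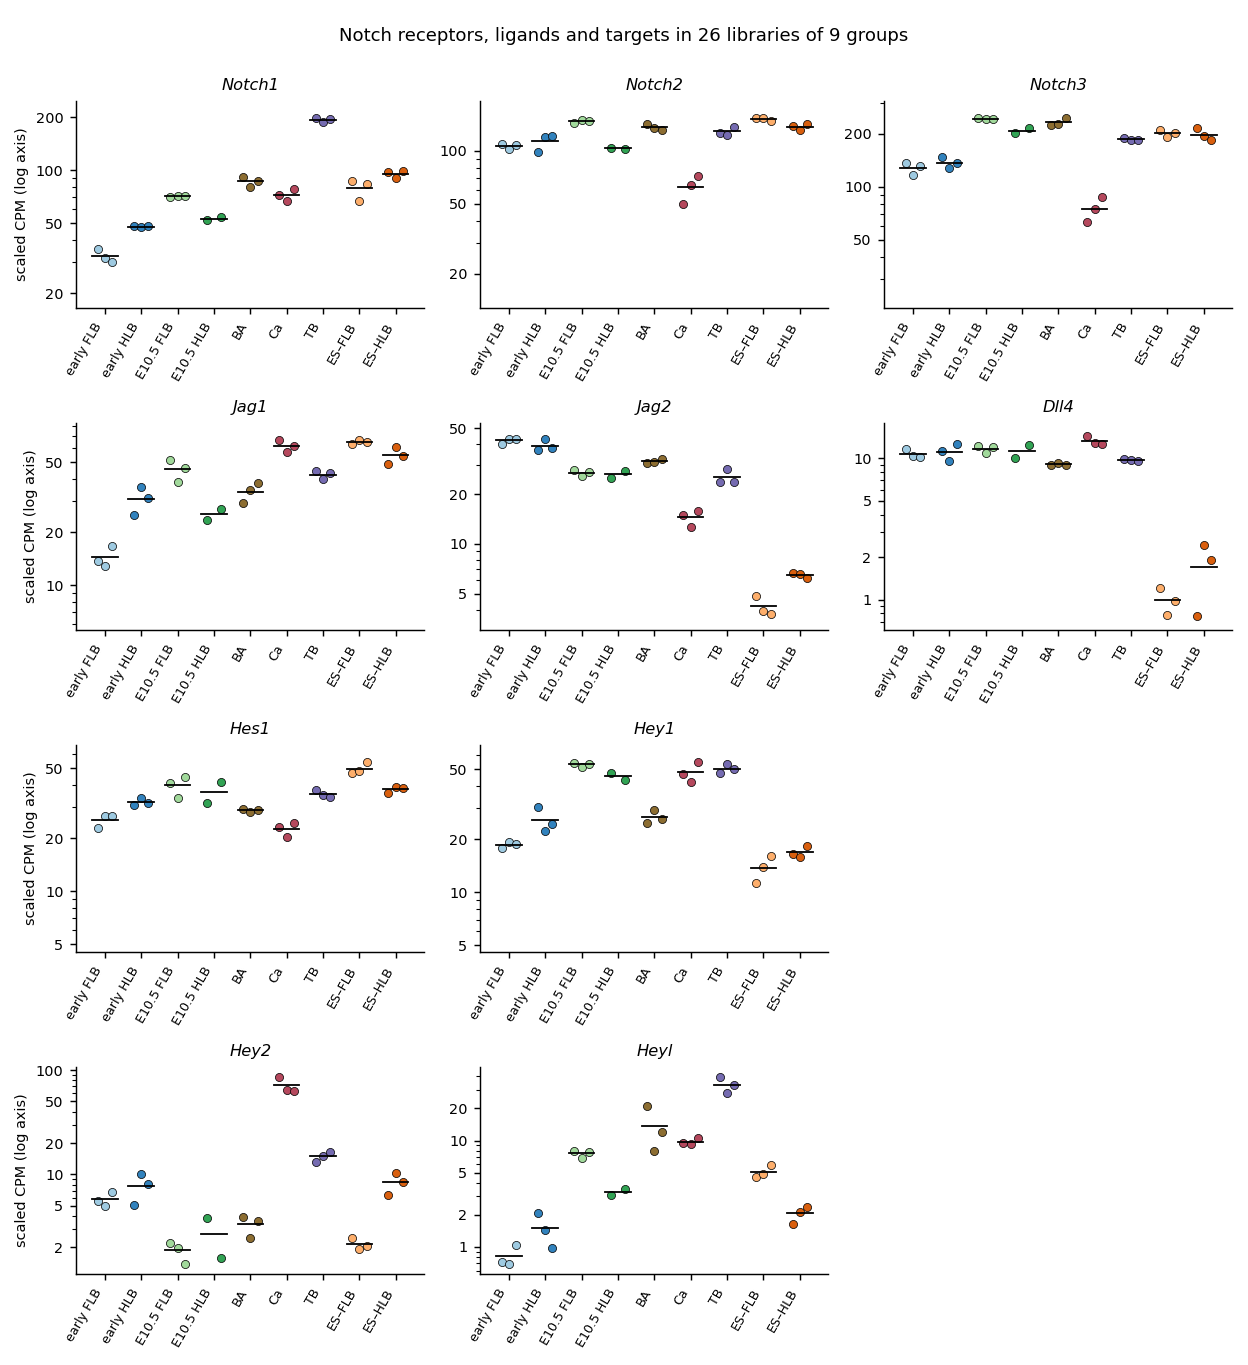
Scaled CPM (log axis) of the 10 genes in each of 26 libraries of 9 groups. Each point is a library and each line the mean of a group. Dll4 and Jag2 sit below every embryonic library in all 6 ES–LB libraries, Hey2 is highest in Ca, and Notch1 and Heyl are highest in TB.

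Notch1 (chr2:26457902-26503822 on GRCm38, minus strand) encodes a receptor needed for vessel growth and for orderly somites. Gene positions here are from RefSeq and their strands from GENCODE. The level of Notch1 was 199, 186 and 195 CPM in the 3 TB libraries. It was 35.5, 31.7 and 29.9 CPM in the early FLBs and 48.2, 47.2 and 47.9 CPM in the early HLBs. TB thus stood above every other library and the early FLBs below every other library, with a 5.97-fold span between these group means. ES–FLB libraries had 86.2, 66.8 and 83.2 CPM, and ES–HLB libraries 97.6, 90.2 and 98.7 CPM. At E10.5, FLBs had 70.5, 71.1 and 71.5 CPM and HLBs 51.7 and 54.1 CPM. Both ES–LB groups lay above both early limb buds, and ES–FLB overlapped the E10.5 FLBs, whereas ES–HLB did not overlap the E10.5 HLBs. BA (80.1 to 91.9 CPM) and Ca (66.9 to 77.6 CPM) fell among the ES–LB and E10.5 FLB libraries. In order of means ES–HLB, BA, ES–FLB, Ca and E10.5 FLB came after TB, each overlapping the next.

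Notch2 (chr3:98013538-98150367, plus strand) and Notch3 (chr17:32120820-32166896, minus strand), the second of which is best known from the muscle cells around vessels, had narrower spans, 2.45-fold and 3.24-fold. Notch2 was 50.2, 64.0 and 72.3 CPM in Ca, below every library of the other 8 groups, which lay between 99.2 and 155 CPM. It was highest in ES–FLB (154, 155 and 147 CPM) and the E10.5 FLBs (145, 150 and 148 CPM), which overlapped, and ES–HLB had 138, 131 and 142 CPM. Ca was lowest for Notch3 as well, with 63.5, 74.7 and 87.4 CPM. The E10.5 FLBs (245, 244 and 242 CPM) and BA (225, 229 and 248 CPM) had most, and the early limb buds of both types (117 to 147 CPM) stood between Ca and the rest. The ES–LBs had 185 to 215 CPM of Notch3, above all 6 early libraries, and ES–HLB overlapped the E10.5 HLBs (202 and 216 CPM). GENCODE places transcripts on the opposite strand over exons of Notch1 and Notch3 and a same-strand transcript over Notch2, which have no rows in the table, and the strand setting of the counting is not stated, so a part of these values may belong to them.

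Set against exon length (CPM per kb of exons in GENCODE), Notch3 was the most abundant receptor in every group, with a share of the 3 from 40.9% ± 1.55 (n = 3) in Ca to 62.8% ± 0.99 (n = 2) in the E10.5 HLBs. The share of Notch1 was highest in TB (36.5% ± 0.45) and Ca (33.4% ± 3.38, n = 3 each). It was 17.2% ± 1.63 in ES–FLB and 21.04% ± 0.92 in ES–HLB, against 11.5% ± 0.81 and 15.3% ± 0.21 in the early FLBs and HLBs (n = 3 each).

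The 3 ligands parted company between the ES–LBs and the limb buds. Jag1 (chr2:137081451-137116520, minus strand), the ligand mutated in Alagille syndrome, was 63.4, 66.4 and 65.1 CPM in ES–FLB and 49.0, 60.7 and 54.0 CPM in ES–HLB. It was 13.8, 12.8 and 16.8 CPM in the early FLBs and 25.2, 36.0 and 31.4 CPM in the early HLBs. The E10.5 FLBs had 51.7, 38.8 and 46.4 CPM and the E10.5 HLBs 23.3 and 27.2 CPM. Every ES–LB library was above every early limb bud library, ES–FLB was also above every E10.5 FLB, and the early FLBs stood below all other libraries. Among the other tissues Ca (56.9 to 67.0 CPM) overlapped the ES–LBs, and TB (40.1 to 44.3 CPM) and BA (29.5 to 38.1 CPM) were lower.

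Jag2 (chr12:112907803-112929812, minus strand), whose loss joins the digits of mice, went the other way. It was 4.87, 3.90 and 3.78 CPM in ES–FLB and 6.64, 6.55 and 6.23 CPM in ES–HLB. Levels in early FLBs were 40.4, 42.8 and 43.3 CPM and the early HLBs 36.9, 42.9 and 38.0 CPM, the highest of all groups. At E10.5 the FLBs had 27.9, 25.8 and 27.02 CPM and the HLBs 24.96 and 27.7 CPM. No ES–LB library came near an embryonic one, since the lowest of those was 12.7 CPM, in Ca. Early FLBs and HLBs overlapped, as did E10.5 FLBs, E10.5 HLBs and TB (23.7 to 28.5 CPM), and ES–FLB stood below ES–HLB.

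Dll4 (chr2:119325784-119335666, plus strand), a ligand of arterial endothelium and of vessel tips, was 1.22, 0.779 and 0.975 CPM in ES–FLB. The ES–HLB values were 0.766, 2.42 and 1.92 CPM. All 6 values were above the level of 3 reads, which was at most 0.427 CPM in these libraries, but they rest on few reads. The 20 embryonic libraries lay between 8.92 and 14.3 CPM, with Ca highest (14.3, 12.8 and 12.6 CPM) and BA lowest (8.92, 9.33 and 9.00 CPM). The 4 limb bud groups overlapped each other, with means from 10.7 to 11.7 CPM. A processed transcript on the opposite strand, Gm14207, shares 214 exonic bases with Dll4.

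**Figure D2:**
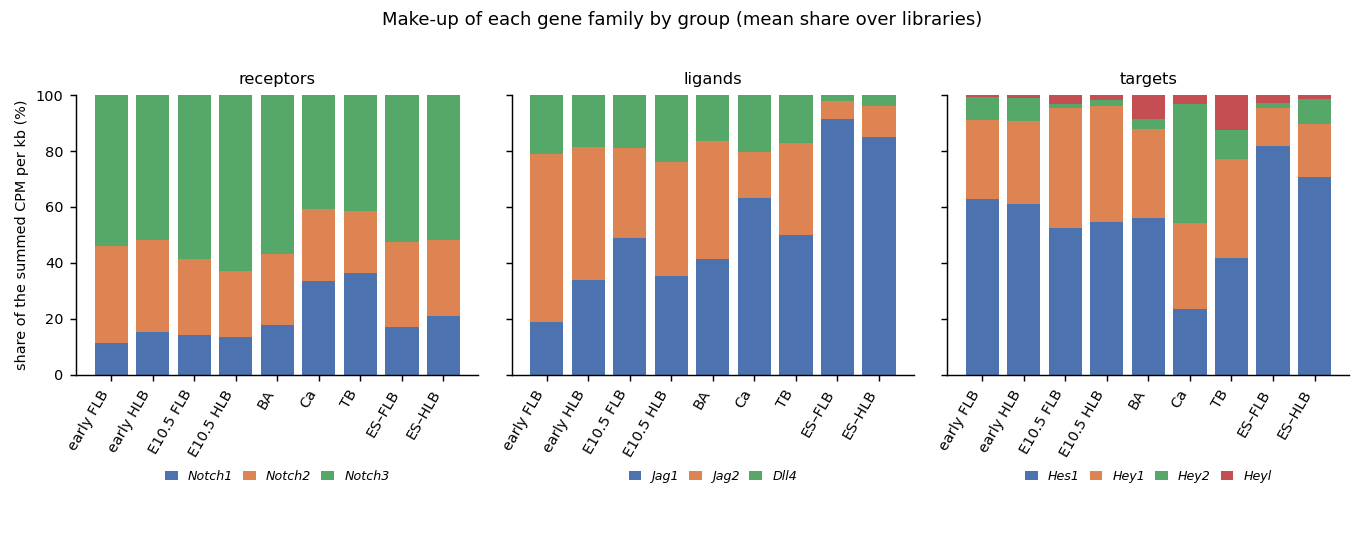
Mean share of each gene in the summed CPM per kb of its family (receptors, ligands, targets), by group, as stacked bars from 0 to 100%. Jag1 makes up 91.4% and 85.0% of the ligands in ES–FLB and ES–HLB, and Hey2 makes up 42.6% of the targets in Ca.

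Per kb of exons, Jag1 made up 91.4% ± 1.40 of the 3 ligands in ES–FLB and 85.0% ± 0.29 in ES–HLB (n = 3 each). In the early FLBs it made up 18.8% ± 2.10, and Jag2 60.3% ± 1.92. In the early HLBs the shares were 33.8% ± 3.22 for Jag1 and 47.6% ± 2.02 for Jag2 (n = 3 each). The lowest share of Jag1 in an ES–LB library was 84.8%, and the highest in an embryonic library was 63.8%, in Ca.

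Of the 4 target genes, Hes1 (chr16:30065357-30067796, plus strand), a repressor that holds progenitors undifferentiated, varied least, with a 2.20-fold span of group means. ES–FLB had 46.7, 47.9 and 54.4 CPM and ES–HLB 36.1, 39.0 and 38.6 CPM. Early FLBs had 23.0, 26.7 and 26.6 CPM and early HLBs 30.99, 33.6 and 31.8 CPM. ES–FLB was above every other library, Ca (20.3 to 24.3 CPM) overlapped the early FLBs at the low end, and ES–HLB, the E10.5 HLBs (31.8 and 41.4 CPM), the E10.5 FLBs (33.8 to 44.8 CPM) and TB (34.2 to 37.3 CPM) overlapped in between.

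Hey1 (chr3:8663359-8667038, minus strand), a repressor of vessels and somites, was lowest in the ES–LBs. It was 11.3, 13.9 and 16.1 CPM in ES–FLB and 16.5, 15.8 and 18.4 CPM in ES–HLB. Levels in early FLBs were 17.9, 19.3 and 18.8 CPM and the early HLBs 30.4, 22.2 and 24.4 CPM. The E10.5 FLBs had 54.2, 51.9 and 53.9 CPM and the E10.5 HLBs 47.4 and 43.7 CPM. ES–HLB overlapped the early FLBs but not the early HLBs, and all 6 ES–LB libraries were far below the E10.5 limb buds, TB (47.3 to 53.4 CPM) and Ca (42.6 to 55.2 CPM).

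Hey2 (chr10:30832359-30842783, minus strand), a repressor that marks compact ventricular muscle and arteries, spanned 38.1-fold. It was 86.1, 63.8 and 63.7 CPM in Ca and 13.3, 14.9 and 16.5 CPM in TB. Early FLBs had 5.62, 4.99 and 6.77 CPM and early HLBs 5.13, 9.99 and 8.12 CPM. The E10.5 limb buds were lower, with 2.22, 1.99 and 1.39 CPM in FLBs and 3.80 and 1.59 CPM in HLBs. ES–HLB (6.39, 10.3 and 8.50 CPM) overlapped the early HLBs and was above every E10.5 limb bud, and ES–FLB (2.43, 1.95 and 2.07 CPM) overlapped the E10.5 FLBs and was below every early library. The 2 E10.5 HLB libraries of Hey2 differed by more than those of any other of the 10 genes in ratio.

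The start of Hey2 is shown because it is the target with 1 of the widest spans and the only 1 of the 7 genes with an entry in the promoter table (Notch1, Notch2, Notch3, Jag1, Jag2, Dll4 and Hey2) that holds the core letters bound by RBPJ, GTGGGAA on either strand. Hes1, Hey1 and Heyl have no entry there, so Hey2 is the only target among the 7 and cannot be set against the other targets. The stretch runs from 250 bases before the start site to the third base after it (RefSeq, GRCm38.p6, chr10:30842781-30843033, minus strand), and capitals mark the matches, which begin 207 and 4 bases before the start site.
Hey2: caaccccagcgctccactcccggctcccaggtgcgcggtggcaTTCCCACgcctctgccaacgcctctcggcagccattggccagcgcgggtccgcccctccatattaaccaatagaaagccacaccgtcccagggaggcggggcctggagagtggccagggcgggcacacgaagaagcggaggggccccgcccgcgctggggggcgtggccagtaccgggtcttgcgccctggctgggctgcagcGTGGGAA
Among 32851 windows of the same 300 bases around start sites in that table, 2097 (6.38%) held these letters. CACGTG, a palindrome bound by Hey and Hes proteins, was in 7.15% of the windows and in 0 of the 7. A match of letters is a description of the window and not a measured site.

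Heyl (chr4:123233556-123249870, plus strand), the Hey gene of smooth muscle and somites, spanned 41.0-fold. It was 39.5, 27.9 and 33.0 CPM in TB and 0.716, 0.699 and 1.03 CPM in the early FLBs. Early HLBs had 2.07, 1.46 and 0.981 CPM, E10.5 FLBs 8.04, 6.79 and 7.84 CPM and E10.5 HLBs 3.08 and 3.53 CPM. ES–FLB had 4.501, 4.81 and 5.85 CPM and ES–HLB 1.66, 2.14 and 2.40 CPM. TB stood above all others, ES–FLB lay between the early and the E10.5 FLBs without touching either, and ES–HLB overlapped the early HLBs. BA was uneven, with 20.99, 7.93 and 12.1 CPM, and its 9 neural markers followed the same order, with sums of 170, 55.1 and 106 CPM in these libraries. Whether they bear on Heyl was not tested.

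Per kb of exons, Hes1 led the 4 targets in every group except Ca, with 81.6% ± 1.01 in ES–FLB, 70.7% ± 1.10 in ES–HLB, and 63.0% ± 1.35 and 61.1% ± 2.39 in the early FLBs and HLBs (n = 3 each). In Ca the share of Hey2 was 42.6% ± 5.03 and that of Hes1 23.6% ± 1.3 (n = 3). The share of Hey1 was 42.8% ± 2.76 in the E10.5 FLBs and 13.6% ± 1.3 in ES–FLB (n = 3 each), which is a description with no test.

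The first question of the design is how sorted ES–LB mesenchyme differs from the limb bud it models. Against the early FLBs, ES–FLB was higher for all 3 receptors, Jag1, Hes1 and Heyl and lower for Jag2, Dll4, Hey1 and Hey2, so 10 of 10 genes were past the threshold, as were 76.9% of all genes tested. Of the 10, 6 were higher and 4 lower, beside 38.9% and 38.0% of all genes. With so large a share of all genes past it, the sizes say more than the calls. Jag2 was 10.1-fold lower (difference −3.20, SE 0.10, adjusted p = 2.83e-23) and Dll4 10.8-fold lower (−2.92, SE 0.19, adjusted p = 2.98e-15). Jag1 was 4.49-fold higher (2.14, SE 0.12, adjusted p = 2.24e-14), Notch1 2.43-fold higher (1.26, SE 0.07, adjusted p = 2.63e-16) and Heyl 6.19-fold higher (2.08, SE 0.23, adjusted p = 9.81e-10). Hey2 was 2.69-fold lower (−1.24, SE 0.24, adjusted p = 2.80e-05). For these 6 genes and for the other 4 the libraries of the groups did not overlap. The median over the 10 genes was 0.58, beside 0.02 over all genes. Hey1 (−0.44, adjusted p = 0.000579) was −0.22 with adjusted p = 0.071 on CPM as deposited.

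Against the early HLBs, ES–HLB was past the threshold for 8 of 10 genes, as were 75.3% of all genes, with 5 higher and 3 lower beside 38.5% and 36.8% of all genes. Jag2 was 6.07-fold lower (−2.51, SE 0.10, adjusted p = 2.32e-20) and Dll4 6.57-fold lower (−2.48, SE 0.19, adjusted p = 2.21e-13). Notch1 was 2.00-fold higher (0.99, SE 0.07, adjusted p = 1.56e-13), Jag1 1.77-fold (0.82, SE 0.12, adjusted p = 1.35e-06), Notch3 1.44-fold (0.53, adjusted p = 2.17e-06) and Notch2 1.21-fold (0.28, adjusted p = 0.00474). The groups were apart for each of these, and Hey1 was 1.52-fold lower (−0.58, adjusted p = 2.07e-05). Hey2 (0.13, 95% interval −0.35 to 0.61, adjusted p = 0.632) and Heyl (0.38, −0.08 to 0.85, adjusted p = 0.129) did not pass. The median was 0.26, beside 0.03 over all genes. Hes1 (0.24, adjusted p = 0.0268) was no longer past the threshold when early HLB replicate 1 or 3 or ES–HLB replicate 2 or 3 was left out (0.21 to 0.23, adjusted p from 0.061 to 0.078), and on CPM as deposited Hes1 was 0.40 and Notch2 0.45.

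**Figure D3:**
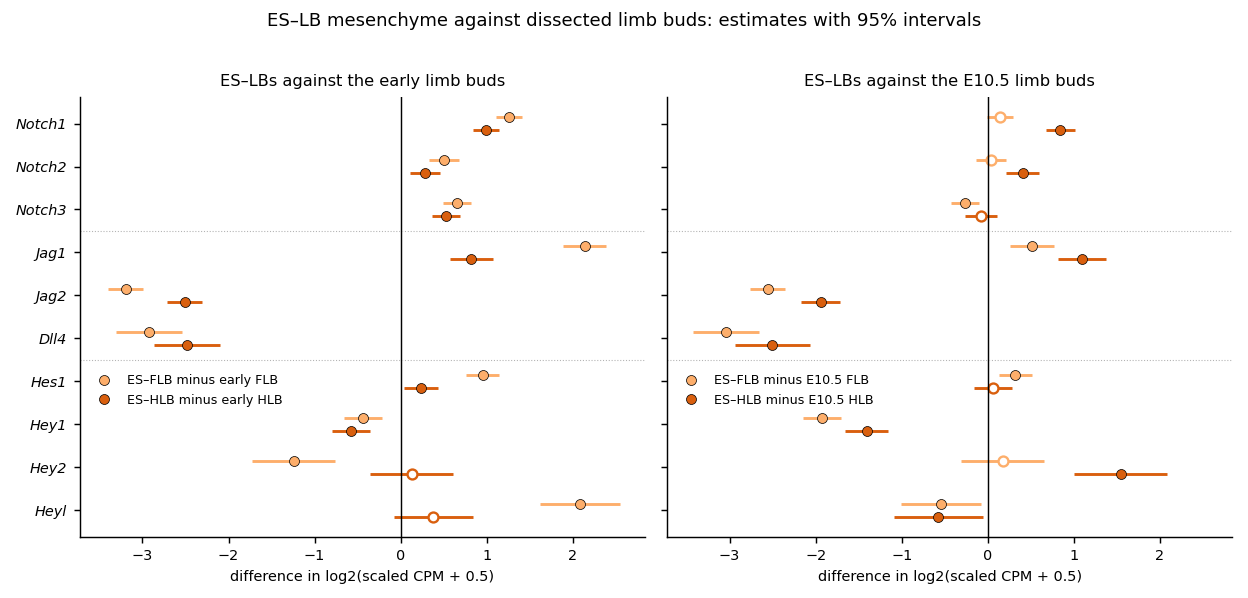
Difference in log2(scaled CPM + 0.5) for the 10 genes between ES–LBs and the early (left) or E10.5 (right) limb buds of the same type, with 95% intervals. Filled points passed an adjusted p of 0.05 and open points did not. Jag2 and Dll4 lie between −1.94 and −3.20 in all 4 comparisons, and the receptors lie at or above 0 against the early limb buds.

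The E10.5 limb buds gave a second reference, compared with the same ES–LB libraries, so the 2 sets of comparisons are not independent. Against the E10.5 FLBs, 7 of 10 genes in ES–FLB were past the threshold (68.8% of all genes), 2 higher and 5 lower beside 33.9% and 34.9% of all genes. Dll4 was 11.8-fold lower (−3.04, SE 0.19, adjusted p = 3.67e-15), Jag2 6.44-fold lower (−2.56, SE 0.10, adjusted p = 3.92e-20) and Hey1 3.87-fold lower (−1.93, SE 0.11, adjusted p = 5.50e-16). Jag1 was 1.42-fold higher (0.51, SE 0.12, adjusted p = 0.000631) and Notch3 1.20-fold lower (−0.27, adjusted p = 0.00523). Notch1 (0.14, 95% interval −0.01 to 0.29, adjusted p = 0.0961), Notch2 (0.04, −0.13 to 0.22, adjusted p = 0.677) and Hey2 (0.17, −0.31 to 0.66, adjusted p = 0.524) did not pass, and their libraries overlapped. Hes1 (0.32, adjusted p = 0.00391) was 0.21 with adjusted p = 0.067 without E10.5 FLB replicate 2. Heyl (−0.54, adjusted p = 0.0356) was not past the threshold without E10.5 FLB replicate 1 or 3 or ES–FLB replicate 1 or 2 (−0.47 to −0.52, adjusted p from 0.082 to 0.11).

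Against the E10.5 HLBs, 8 of 10 genes in ES–HLB were past the threshold (68.7% of all genes), 4 higher and 4 lower beside 35.3% and 33.4% of all genes. Dll4 was 6.66-fold lower (−2.50, SE 0.21, adjusted p = 5.18e-12), Jag2 4.07-fold lower (−1.94, SE 0.11, adjusted p = 6.18e-16) and Hey1 2.69-fold lower (−1.41, SE 0.12, adjusted p = 1.26e-11). Notch1 was 1.80-fold higher (0.84, SE 0.08, adjusted p = 1.59e-10) and Jag1 2.16-fold higher (1.10, SE 0.14, adjusted p = 1.16e-07), both apart from the 2 E10.5 HLB libraries, and Notch2 was 1.33-fold higher (0.40, adjusted p = 0.000553). Notch3 (−0.08, 95% interval −0.26 to 0.11, adjusted p = 0.459) and Hes1 (0.06, −0.16 to 0.28, adjusted p = 0.630) did not pass. Hey2 was 3.11-fold higher (1.54, SE 0.26, adjusted p = 8.65e-06), and 1.02 without E10.5 HLB replicate 3. Heyl (−0.58, adjusted p = 0.0454) lost its call without E10.5 HLB replicate 1 or 3 or ES–HLB replicate 1 or 2 (−0.46 to −0.66, adjusted p from 0.064 to 0.20).

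Markers of limb mesenchyme and of other cell types moved in these same comparisons. Of 8 limb mesenchyme markers, 3 were higher and 4 lower in ES–FLB than in the early FLBs. In ES–HLB against the early HLBs, 4 were higher and 4 lower. By more than 2-fold, 1 was higher and 3 lower in ES–FLB, and 2 higher and 4 lower in ES–HLB. Over all genes 38.9% and 38.5% were higher and 38.0% and 36.8% lower. All 14 endothelial markers were lower in ES–FLB and in ES–HLB than in the early limb buds of the same type, and their sum was 52.8 to 56.8 CPM in ES–FLB and 79.1 to 84.2 CPM in ES–HLB, against 454 to 659 CPM in the limb buds. Pecam1 and Cdh5, which define endothelium, were at 3.53 ± 0.65 and 6.78 ± 1.99 CPM in ES–FLB (n = 3) and so were low but not at 0. In the arterial list Gja4 and Gja5 were at or below 0.683 CPM as group means in the ES–LBs, whereas Efnb2 was 216 and 238 CPM, above its level in both early limb buds. Of 14 epithelial markers, 10 were lower and 2 higher in ES–FLB and 9 lower and 2 higher in ES–HLB than in the early limb buds, and the higher ones were Krt14 and Krt15 in both. Over all genes 38.0% and 36.8% were lower. The epithelial lists had sums of 140 to 197 and 254 to 268 CPM against 376 to 647 CPM in the limb buds. Of 9 markers of mural cells and smooth muscle, 6 were higher and 1 (Tagln, −1.97) lower in ES–FLB, and 6 were higher and 0 lower in ES–HLB, beside 38.9% and 38.5% of all genes higher. The sums were 344 to 408 CPM against 142 to 222 CPM. Of 9 neural markers, 4 were higher and 1 lower in ES–FLB and 6 higher and 1 lower in ES–HLB, with Sox2 higher by 3.55 and 5.18 and Dcx lower in both. Their sums were 34.7 to 48.9 CPM in the ES–LBs and 16.7 to 35.5 CPM in the early limb buds. The E10.5 limb buds had higher neural sums than the ES–LBs, 101 to 112 CPM in FLBs and 87.8 to 90.6 CPM in HLBs. These sums rested on few genes, with 2 or 3 of the 9 markers above 3 reads in each library. Gene by gene against E10.5, 3 were higher and 1 lower in ES–FLB, and 5 higher and 1 lower in ES–HLB. Over all genes 33.9% and 35.3% were higher there, and 34.9% and 33.4% lower. The part of these shifts in the differences of the 10 genes was not tested, and in bulk RNA fewer cells of a type cannot be told apart from less RNA per cell.

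**Figure D4:**
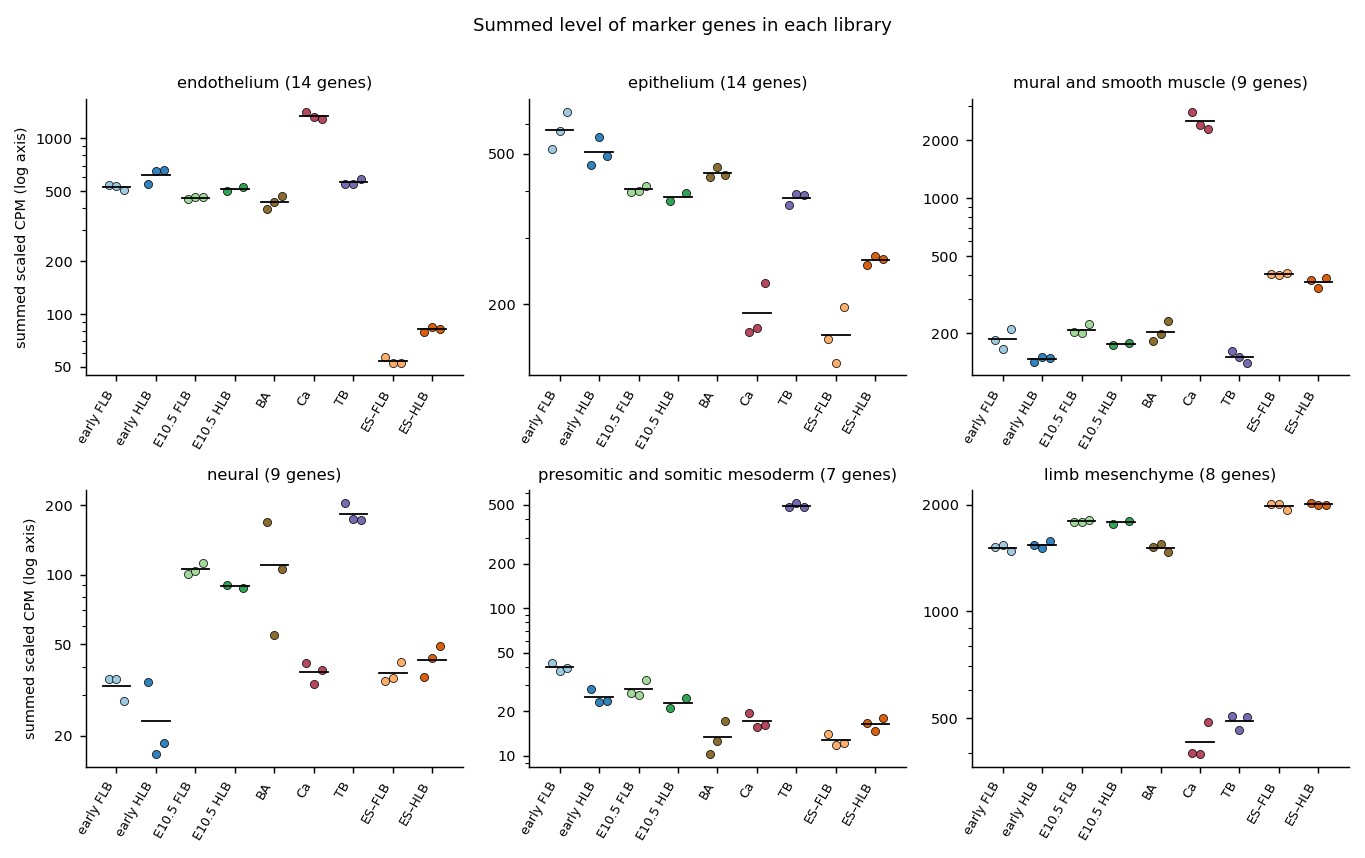
Summed scaled CPM (log axis) of 6 fixed marker lists in each of 26 libraries. Points are libraries and lines group means. The endothelial sum of the 6 ES–LB libraries is 84.2 CPM or less and that of every embryonic library 396 CPM or more, and the TB libraries stand alone for presomitic and somitic mesoderm.

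The study also asked whether forelimb and hindlimb types differ alike in culture and in the embryo. Between ES–HLB and ES–FLB 5 of 10 genes were past the threshold (19.9% of all genes), 3 higher and 2 lower beside 11.2% and 8.69% of all genes. Hey2 was 3.90-fold higher in ES–HLB (1.72, SE 0.24, adjusted p = 2.83e-06) and Jag2 1.55-fold higher (0.58, SE 0.10, adjusted p = 4.63e-05). Heyl was 2.45-fold lower in ES–HLB (−1.12, SE 0.23, adjusted p = 0.000478) and Hes1 1.31-fold lower (−0.38, adjusted p = 0.00375), and the libraries of the types did not overlap for any of these 4. Notch1 was 1.21-fold higher (0.28, adjusted p = 0.00561), and 0.17 with adjusted p = 0.11 without ES–FLB replicate 2. Over all genes the endothelial markers also differed, with 11 of 14 higher and 0 lower in ES–HLB, and 7 of 14 epithelial markers higher and 0 lower, and their part was not tested. Dll4 (0.49, 95% interval 0.10 to 0.87, adjusted p = 0.0675) did not pass.

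In early HLBs against early FLBs 4 of 10 genes passed (18.9% of all genes), with 4 higher and 0 lower in HLBs beside 8.55% and 10.4% of all genes. Jag1 was 2.13-fold higher (1.06, SE 0.12, adjusted p = 4.95e-07) and Notch1 1.48-fold higher (0.56, SE 0.07, adjusted p = 1.15e-06), with no overlap. Hey1 (0.44, adjusted p = 0.00410) was 0.31 with adjusted p = 0.065 without early HLB replicate 1, and Hes1 (0.34, adjusted p = 0.0112) was 0.26 with adjusted p = 0.094 without early FLB replicate 1. At E10.5 the genes past the threshold (20.9% of all genes) were 0 higher and 4 lower in HLBs, beside 9.91% and 11.0% of all genes (of all calls 47.3% were higher, and 28.5% on CPM as deposited): Jag1 1.81-fold (−0.83, SE 0.14, adjusted p = 0.000114), Notch2 1.43-fold (−0.51, adjusted p = 0.000402), Notch1 1.34-fold (−0.42, adjusted p = 0.000456) and Heyl 2.29-fold (−1.08, adjusted p = 0.00259). Heyl was −0.998 with adjusted p = 0.0501 and not past the threshold without E10.5 HLB replicate 1. So Jag1 and Notch1 were higher in HLBs than FLBs at the early stage and lower at E10.5.

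The difference between types was itself tested between culture and the early limb buds, as the change from ES–FLB to ES–HLB minus the change from early FLB to early HLB. It passed for 5 of 10 genes (20.1% of all genes), 2 higher and 3 lower beside 11.5% and 8.59% of all genes. Jag1 (−1.32, SE 0.17, adjusted p = 3.88e-06), Heyl (−1.70, SE 0.32, adjusted p = 0.00022) and Hes1 (−0.72, SE 0.13, adjusted p = 0.00019) had the lower difference in culture, where hindlimb minus forelimb type was −0.25 for Jag1 (adjusted p = 0.160), −1.12 for Heyl and −0.38 for Hes1, against 1.06, 0.58 (adjusted p = 0.0749) and 0.34 in the early limb buds. Hey2 (1.37, SE 0.33, adjusted p = 0.00355) and Jag2 (0.69, SE 0.14, adjusted p = 0.000527) had the higher difference in culture, with early differences of 0.35 (adjusted p = 0.346) and −0.11 (adjusted p = 0.548). The early FLBs and HLBs may also differ in stage, which cannot be told apart from limb type. At E10.5, hindlimb minus forelimb type was −0.83 for Jag1, −1.08 for Heyl, −0.12 for Hes1, 0.36 for Hey2 and −0.03 for Jag2. Of these only Jag1 and Heyl passed, and the difference in culture was not tested against that at E10.5.

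From the early stage to E10.5, FLBs changed in 9 of 10 genes (59.1% of all genes), 7 higher and 2 lower beside 28.3% and 30.8% of all genes. Heyl rose 9.26-fold (2.62, SE 0.23, adjusted p = 2.01e-11), Jag1 3.15-fold (1.62, SE 0.12, adjusted p = 2.26e-11), Hey1 2.85-fold (1.49, SE 0.11, adjusted p = 4.29e-13) and Notch1 2.19-fold (1.12, SE 0.07, adjusted p = 2.87e-14). Notch3 (0.92), Hes1 (0.63) and Notch2 (0.46) rose too, Hey2 was 3.10-fold lower (−1.42, SE 0.24, adjusted p = 8.21e-06) and Jag2 1.57-fold lower (−0.64, SE 0.10, adjusted p = 1.78e-06). The stages did not overlap for any of these 9, and Dll4 (0.12, 95% interval −0.26 to 0.51, adjusted p = 0.609) did not pass. The early libraries were deeper than the E10.5 limb buds and held fewer whole values, as given above, and the part of this was not tested.

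HLBs changed in 5 of 10 genes (28.9% of all genes), 3 higher and 2 lower beside 12.6% and 16.4% of all genes. Hey1 rose 1.78-fold (0.83, SE 0.12, adjusted p = 4.38e-06), Notch3 1.52-fold (0.61, SE 0.09, adjusted p = 1.40e-05), and Jag2 was 1.49-fold lower (−0.57, adjusted p = 0.000212). Hey2 was 2.88-fold lower (−1.41, adjusted p = 0.000151) and −0.89 without E10.5 HLB replicate 3, and Heyl rose 2.20-fold (0.96, adjusted p = 0.00455) and was 0.87 with adjusted p = 0.058 without the same library. The change in HLBs minus that in FLBs was past the threshold for 6 of 10 genes (20.6% of all genes), 0 higher and 6 lower in HLBs beside 10.7% and 9.96% of all genes (of all calls 51.7% were higher, and 26.3% on CPM as deposited): Jag1 by −1.90 (SE 0.18, adjusted p = 7.16e-08), Heyl by −1.66 (SE 0.34, adjusted p = 0.000678), Notch1 by −0.98 (SE 0.11, adjusted p = 1.48e-07), Hey1 by −0.66 (SE 0.16, adjusted p = 0.00401), Notch2 by −0.59 (SE 0.13, adjusted p = 0.00164) and Hes1 by −0.46 (SE 0.14, adjusted p = 0.0206). Hes1 lost its call without early FLB replicate 1 (−0.39), E10.5 FLB replicate 3 (−0.37) or E10.5 HLB replicate 1 (−0.27). For Jag2 the changes differed by 0.07 (95% interval −0.23 to 0.38, adjusted p = 0.790), which did not pass.

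At E10.5, each other tissue was set against the mean of the remaining 4 groups, which the 3 comparisons share. In Ca 8 of 10 genes passed (79.0% of all genes), 3 higher and 5 lower beside 38.0% and 41.0% of all genes. Hey2 was higher by 3.98 (SE 0.19, adjusted p = 2.32e-17) and Jag1 by 0.78 (SE 0.10, adjusted p = 7.48e-08). Notch3 was lower by −1.53 (SE 0.06, adjusted p = 4.56e-17), Notch2 by −1.05 (SE 0.07, adjusted p = 1.87e-13), Jag2 by −0.90 (SE 0.08, adjusted p = 5.09e-12), Hes1 by −0.62 (SE 0.08, adjusted p = 9.12e-09) and Notch1 by −0.30 (adjusted p = 2.63e-05). Ca libraries did not overlap the other E10.5 libraries for any of these except Notch1. The endothelial sum of Ca, 1293 to 1420 CPM, was above that of every other library, with 12 of 14 markers higher and 2 lower. The part of these markers in the differences of the 10 genes was not tested. Dll4 differed by 0.33 (95% interval 0.03 to 0.64, adjusted p = 0.0439). It was not past the threshold on CPM as deposited (0.22) or without any 1 of 9 libraries (0.28 to 0.37): each Ca library, BA replicate 1 or 3, TB replicate 2 or 3, E10.5 FLB replicate 2 or E10.5 HLB replicate 1.

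In TB 6 of 10 genes passed (51.4% of all genes), 6 higher and 0 lower beside 25.6% and 25.8% of all genes. Heyl was higher by 2.07 (SE 0.18, adjusted p = 3.69e-11) and Notch1 by 1.47 (SE 0.06, adjusted p = 9.68e-20), both apart from every other E10.5 library. Hey2 was higher by 1.22 (SE 0.19, adjusted p = 3.80e-06), since TB was above BA and both limb buds and below Ca. Notch2 (0.27, adjusted p = 0.00144), Hey1 (0.25, adjusted p = 0.0157) and Hes1 (0.19, adjusted p = 0.0361) passed with overlap. In each of these the mean of TB was below that of the E10.5 FLBs. The means were 129 against 148 CPM for Notch2, 50.2 against 53.3 for Hey1 and 35.6 against 39.9 for Hes1. Hey1 was 0.21 with adjusted p = 0.10 without TB replicate 2, and Hes1 fell to adjusted p of 0.053 to 0.16 (0.14 to 0.22) without 1 of 6 libraries (TB replicate 1, 2 or 3, Ca replicate 2, E10.5 FLB replicate 2 or E10.5 HLB replicate 1).

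In BA 7 of 10 genes passed (51.4% of all genes), 3 higher and 4 lower beside 25.4% and 26% of all genes. Hey2 was lower by −1.31 (SE 0.19, adjusted p = 1.51e-06) and Hey1 by −0.87 (SE 0.09, adjusted p = 9.98e-10), the latter apart from the 11 other E10.5 libraries. For Hey2, BA (mean 3.32 CPM) was below Ca and TB (71.2 and 14.9 CPM). It was not below the E10.5 HLBs (2.69 CPM) and FLBs (1.87 CPM). Notch3 was higher by 0.52 (adjusted p = 3.55e-07), Jag2 by 0.47 (adjusted p = 9.77e-06) and Notch2 by 0.38 (adjusted p = 5.49e-05), and of these Jag2 was apart. Jag1 (−0.29, adjusted p = 0.0144) was −0.20 with adjusted p = 0.15 without BA replicate 1. Hes1 (−0.18, adjusted p = 0.0443) lost its call (−0.14 to −0.19) without any 1 of 10 libraries: each BA library, Ca or E10.5 FLB replicate 1 or 3, TB replicate 1 or 2, or E10.5 HLB replicate 3. Heyl (0.38, 95% interval 0.01 to 0.75, adjusted p = 0.0836) did not pass, and rested on single libraries, with 0.024 without BA replicate 1, not past the threshold, and 0.699 without BA replicate 2, past it. In the same comparison 10 of 14 epithelial markers were higher and 1 lower, and 12 of 14 endothelial markers were lower and 0 higher, and their part in the differences of the 10 genes was not tested.

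The rest of the pathway was read from a list of 47 genes, of which 46 were tested and Hes2 was too low. ES–FLB against the early FLBs had 20 of these higher and 14 lower, and ES–HLB against the early HLBs 20 higher and 18 lower, beside 76.9% and 75.3% of all genes past the threshold. Their medians were 0.14 and 0.15, beside 0.02 and 0.03 over all genes. The groups within the list differed in direction. All 4 genes of ligand uptake were higher in both ES–LB types, led by Neurl1a (1.74 and 1.504), which marks ligands for uptake. Of 9 genes of the nuclear complex and its corepressors, 7 were higher and 2 lower in both, with Rbpj at 0.54 and 0.37, so the DNA-binding partner of the receptors was slightly higher.

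Several other genes of the list were lower in both ES–LB types than in the early limb buds. Notch4, a receptor of endothelium, was 3.09 ± 0.72 CPM in ES–FLB and 3.70 ± 0.13 in ES–HLB, against 12.4 ± 1.98 and 18.1 ± 1.47 in the early FLBs and HLBs (−1.85 and −2.14, n = 3 each). Mfng and Lfng, sugar transferases that tune which ligand a receptor answers, were lower by −2.67 and −1.58 in ES–FLB and by −3.03 and −0.85 in ES–HLB. Dlk1, an imprinted gene with a ligand-like protein, was 464 ± 46.0 CPM in the early FLBs and 20.97 ± 1.44 in ES–FLB (−4.43 in both types). Nrarp, a target that feeds back on the pathway, was lower by −1.14 and −0.88, and Numbl, a relative of the inhibitor Numb, was higher by 2.19 and 2.05.

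**Figure D5:**
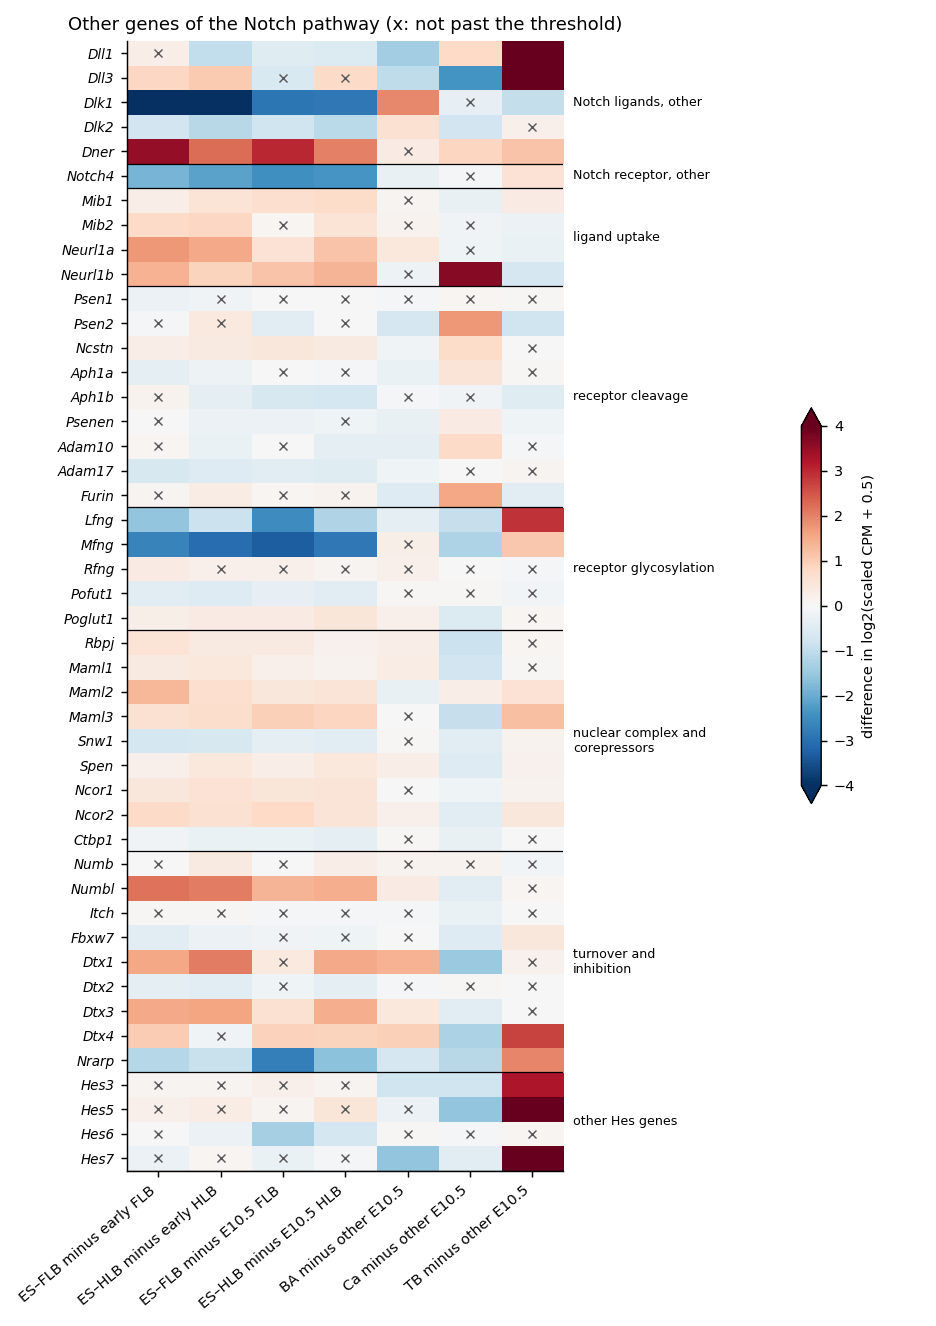
Difference in log2(scaled CPM + 0.5) of 46 other Notch pathway genes (rows, grouped by role) in 7 comparisons (columns), from −4 (blue) to 4 (red), with values beyond at the end colours. Crosses mark differences not past an adjusted p of 0.05. Dll1, Dll3, Hes5 and Hes7 are higher in the TB column by 4.05 to 5.88, and Notch4 is lower in all 4 ES–LB columns.

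In TB, several ligands and Hes genes that were low elsewhere were present. Both marker lists of presomitic and somitic mesoderm (7 of 7 higher) and of neural cells (7 of 9 higher and 1 lower, median 4.55, sums of 172 to 205 CPM) moved in the same comparison, and their part in these genes and in Notch1, Hey2 and Heyl was not tested. Dll1, the main ligand of presomitic mesoderm, was 110 ± 2.52 CPM there and 15.2 ± 2.11 in Ca, the next highest group. Dll3 was 64.9 ± 1.41 CPM in TB, and Hes7, the clock repressor, 15.4 ± 1.83 CPM (n = 3), whereas their means elsewhere were at most 1.42 and 0.857 CPM. Hes5 was 14.1 ± 3.80 CPM in TB, and the libraries elsewhere reached 1.07 CPM. Lfng was 54.2 ± 2.19 and Nrarp 85.5 ± 1.73 CPM, both above every other group. Of the 46 genes, 19 were higher and 8 lower in TB, with a median of 0.09 beside −0.0034 over all genes, where 25.6% of all genes were higher and 25.8% lower.

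The genes most like each of the 10 genes were found by Pearson's r of group means of log2 values over the 9 groups, among 8720 genes with a span of at least 2-fold. The first of them is named for 9 of the 10 genes, and for Dll4 the first 3, chosen after the values were seen. These r describe 9 means that share libraries, and with so many genes compared, high values are found for any pattern. Dll4 was most like Tti1 (r = 0.997), Gimap6 (0.994) and Sox18 (0.993), of which Sox18 is a factor of endothelium. Jag2 was most like Pdgfa (0.991), Hey2 was most like Pcgf5 (0.977), and Notch3 was most like Zfp60 (0.993). Notch1 was led by Tal2 (0.955), Notch2 by Tgif1 (0.971), Jag1 by Zfp367 (0.963), Hes1 by Sash1 (0.932) and Hey1 by Ptprc (0.958).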

How the data were processed

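RNA-seq libraries were made by the authors with a stranded mRNA kit, aligned to mm10 with HISAT2 and summarised per RefSeq gene. The authors deposited the values as CPM, which sum to 1000000 in each column, and whether counting used strand is not stated. The 10 genes and all gene lists were chosen with earlier results of these data known. Of 27 libraries 26 were used. E10.5 HLB replicate 2 was left out (13642 genes listed at 0, where its 2 sister libraries had 8486.5 on average). CPM were scaled by TMM factors without weights, and log2(CPM + 0.5) of genes that reached 1 CPM in 3 or more libraries was fitted with limma 3.58.1 (trend and robust) in 1 model of 9 group means, with Benjamini-Hochberg adjustment over all genes tested. Intervals are 95%, and cover the spread between libraries. The genes named were the 10, genes of the lists, and for each of the 10 the genes with the highest Pearson's r to it. Which list genes are given with values was chosen after their values were seen. The code was tested on simulated data. Alternatives changed scaling, pseudocount, filter, model, replicate block, threshold and libraries. Read numbers were estimated from the spacing of low values, and 3 reads, taken as the floor, were 0.148 to 0.543 CPM.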

Additional observations from a re-analysis of the deposited data

Results flagged for a closer look

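The difference between hindlimb and forelimb type was not the same in ES–LBs and in the early limb buds for 5 of the 10 genes, by a limma test of the difference itself with adjustment over all genes tested. It was lower in ES–LBs by −1.32 for Jag1 (SE 0.17, adjusted p = 3.88e-06), −0.72 for Hes1 (SE 0.13, adjusted p = 0.00019) and −1.70 for Heyl (SE 0.32, adjusted p = 0.00022). It was higher in ES–LBs by 0.69 for Jag2 (SE 0.14, adjusted p = 0.000527) and 1.37 for Hey2 (SE 0.33, adjusted p = 0.00355). In the early limb buds used here, limb type cannot be told apart from stage. At E10.5, hindlimb minus forelimb type was −0.83 for Jag1, −0.12 for Hes1, −1.08 for Heyl, −0.03 for Jag2 and 0.36 for Hey2. The difference in ES–LBs was not tested against that at E10.5.

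The change from the early stage to E10.5 differed between HLBs and FLBs for 6 genes by the same test, as the change in HLBs minus that in FLBs. It was −1.90 for Jag1 (adjusted p = 7.16e-08), −0.98 for Notch1 (adjusted p = 1.48e-07) and −1.66 for Heyl (adjusted p = 0.000678). It was −0.59 for Notch2 (adjusted p = 0.00164), −0.66 for Hey1 (adjusted p = 0.00401) and −0.46 for Hes1 (adjusted p = 0.0206), the last of which was not past the threshold without early FLB replicate 1, E10.5 FLB replicate 3 or E10.5 HLB replicate 1 (−0.27 to −0.39). The early FLBs and early HLBs may differ in stage, and this cannot be told apart from limb type.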

How the results depend on the processing

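Of 140 differences (10 genes in 14 comparisons), 92 were past the threshold and 0 of these changed direction under any alternative run. Of the 92, 76 kept their call in all alternatives other than a stricter p, and 16 lost it in at least 1. The 16 are named with the results, though not with every alternative in which the call was lost. Heyl in both ES–LB types against the E10.5 limb buds also lost it with no filter and with limma without trend and robust. So did Hes1 in BA and in TB and Dll4 in Ca. Past an adjusted p of 0.001 were 70 of the 92. At that stricter p the genes called were 4 in ES–FLB against E10.5 FLBs, 3 in ES–HLB against ES–FLB, 2 in early HLBs against early FLBs, 3 in TB and 3 in the stage difference between limb types.

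Among differences not past the threshold, direction turned on CPM as deposited for Notch3 in ES–HLB against E10.5 HLBs (0.030) and, in the stage difference, for Jag2 (−0.033) and Hey2 (−0.087). Hey2 there also turned with median of ratios scaling (−0.0031), a pseudocount of 1 (−0.024) and the truncated library added (−0.083), which also turned Dll4 between E10.5 HLBs and FLBs (0.029). With 1 library left out at a time, Hey2 ranged from −0.12 to 0.33 and Hes1 from −0.13 to 0.25 in ES–HLB against early and E10.5 HLBs, in that order, and Notch3 from −0.093 to 0.015 between ES–HLB and ES–FLB. Dll4 ranged from −0.045 to 0.15 between early HLBs and FLBs. Between E10.5 HLBs and FLBs the ranges were −0.11 to 0.040 for Jag2, −0.20 to 0.095 for Dll4, −0.31 to 0.064 for Hes1 and −0.17 to 0.88 for Hey2. From early to E10.5 HLBs they were −0.13 to 0.17 for Dll4 and −0.012 to 0.36 for Hes1. Heyl in Ca ranged from −0.15 to 0.018, Notch1 in BA from −0.026 to 0.072 and Jag2 in TB from −0.0057 to 0.13. In the stage difference the ranges were −0.00085 to 0.15 for Jag2, −0.25 to 0.045 for Dll4 and −0.52 to 0.52 for Hey2. The cause was not tested. Leaving out an E10.5 HLB library leaves 1 there, assumed to vary like the other groups.

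CPM as deposited moved the median of all genes by up to 0.20 (ES–FLB against early FLBs), and the share of calls over all genes that were higher went there from 50.6% to 62.7%. That share also moved by over 10 points in ES–HLB against early HLBs (51.1% to 61.3%), E10.5 against early FLBs (47.9% to 66.6%) and HLBs (43.5% to 58.4%), HLBs against FLBs early (45.1% to 60.8%) and at E10.5 (47.3% to 28.5%), BA (49.3% to 59.8%), TB (49.8% to 60.5%), the limb type difference between ES–LBs and early limb buds (57.2% to 44.8%) and the stage difference (51.7% to 26.3%). Replicate numbers were not taken to pair the samples, since 3 of 100 same-numbered pairs correlated above 0.1 (median 0.017). In 112 of 200 checks of a library against another group it correlated best with its own number, a hint from the data and not the design. With the replicate block 91 of the 92 calls were kept and Heyl in ES–HLB against E10.5 HLBs lost its call (−0.50, adjusted p = 0.075). A count test with edgeR was planned and not run, because the values are CPM.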
